A study of Homo sapiens with 2 samples.

Results

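Interferon-stimulated antiviral genes encode proteins that block steps of viral infection inside the cell, and 11 of them were examined for binding by PRDM1. The genes were ZC3HAV1, ISG15, IFI44L, IFIT1, IFIT2, IFIT3, OAS1, OAS2, OAS3, MX1 and MX2, and they lie in 7 chromosomal intervals. A PRDM1 peak was counted for an interval when its summit, the position of highest tag density, lay in the interval or within 25 kb of it. This gave 10 peaks of the 9669 in the complete list, at 4 of the 7 intervals. The genes were kept whether or not they had a peak.

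The binding map came from ChIP-seq, in which chromatin fragments that carry PRDM1 are pulled down with an antibody and sequenced. It was made in U266, an established cell line from human multiple myeloma, the malignancy of plasma cells. There was 1 library immunoprecipitated with a rabbit monoclonal antibody to PRDM1, clone C14A4, and 1 input library of DNA with no antibody. Both are labelled U266, with no treatment named, no second condition and no replicate, and their growth text also mentions the myeloma line NCI-H929. All intervals below therefore cover counting error only, and no test between conditions was possible. The PRDM1 library kept 7854466 tags and the input library kept 8556458, or 2.91 and 3.17 per kb of the effective genome.

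PRDM1 (BLIMP-1) is the DNA-binding repressor that shuts down the B cell program as plasma cells form. It binds DNA sequences rich in GAAAG, which resemble the interferon-stimulated response element to which interferon regulatory factors bind. The antiviral genes are switched on through such elements after interferon has bound its receptor. The labels carry no measurement of their expression, so the peaks describe binding only.

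The promoter sequences bear on this, since PRDM1 and interferon regulatory factors read similar letters. RefSeq promoters (GRCh38.p14) of 250 bases before and 50 after a start site were matched by symbol for 8 of the 11 genes, with 11 promoters, and IFIT2, OAS2 and MX2 were not matched. A core of the response element, 2 copies of GAAA with any 2 bases between them, was searched on both strands and is called the spaced GAAA pair below. It was found in 8 of these 11 promoters and in 6 of the 8 genes. It was found in 3.57% of all 35116 RefSeq promoters and in 4.38% of their 27305 genes. Of 32 other antiviral interferon-stimulated genes, counted further below, 26 were matched, with 35 promoters. Among these, 21 promoters and 19 genes held the spaced GAAA pair. The stricter form, in which the 2 bases are GT, is one case of it and was found in 3 of the 11 promoters, both of IFIT3 and that of IFIT1. Of all promoters 0.202% hold it. The shorter motif GAAAGTG, which lies within that form and was also searched on both strands, was found in the same 3 promoters and in that of OAS1, against 4.68% of all promoters. Other spacings of the 2 copies were not searched, so a promoter without a match can still hold a response element. A match is a description of letters and not a binding site.

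The 250 bases before the start are shown for ZC3HAV1, ISG15, IFIT3 and OAS1, whose nearest summit lay within 3 kb of a start, and for IFIT1 and IFI44L, which had none so near, 5′ to 3′ on the strand of the gene, with the spaced GAAA pair or its reverse complement in capitals. They lie at chr7:139109721-139109970 on the minus strand for ZC3HAV1, and on the plus strand at chr1:1013247-1013496 for ISG15, chr10:89332279-89332528 for the second start of IFIT3, chr12:112906712-112906961 for OAS1, chr10:89392373-89392622 for IFIT1 and chr1:78620198-78620447 for IFI44L, all in GRCh38.p14. The peaks are in GRCh37 coordinates, so these positions cannot be set beside those of the peaks.
ZC3HAV1: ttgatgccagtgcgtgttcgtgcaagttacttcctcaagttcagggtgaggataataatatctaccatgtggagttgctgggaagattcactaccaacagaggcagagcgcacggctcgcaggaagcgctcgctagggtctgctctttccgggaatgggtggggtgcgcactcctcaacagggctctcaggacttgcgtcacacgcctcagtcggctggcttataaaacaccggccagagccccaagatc
ISG15: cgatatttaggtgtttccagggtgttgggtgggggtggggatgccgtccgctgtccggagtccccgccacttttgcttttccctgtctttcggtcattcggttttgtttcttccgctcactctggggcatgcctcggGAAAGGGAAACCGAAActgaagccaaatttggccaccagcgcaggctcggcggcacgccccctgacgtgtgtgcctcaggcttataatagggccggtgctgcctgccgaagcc
IFIT3, the second start: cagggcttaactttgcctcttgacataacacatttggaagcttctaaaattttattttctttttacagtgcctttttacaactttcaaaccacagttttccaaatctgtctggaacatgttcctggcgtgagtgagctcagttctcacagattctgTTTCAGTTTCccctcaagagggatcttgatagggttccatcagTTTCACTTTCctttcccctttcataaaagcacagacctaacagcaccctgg
OAS1: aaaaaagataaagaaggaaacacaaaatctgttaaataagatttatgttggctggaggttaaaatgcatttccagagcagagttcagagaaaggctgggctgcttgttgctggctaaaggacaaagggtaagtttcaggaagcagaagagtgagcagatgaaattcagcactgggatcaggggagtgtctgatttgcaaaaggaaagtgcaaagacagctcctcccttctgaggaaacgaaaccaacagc
IFIT1: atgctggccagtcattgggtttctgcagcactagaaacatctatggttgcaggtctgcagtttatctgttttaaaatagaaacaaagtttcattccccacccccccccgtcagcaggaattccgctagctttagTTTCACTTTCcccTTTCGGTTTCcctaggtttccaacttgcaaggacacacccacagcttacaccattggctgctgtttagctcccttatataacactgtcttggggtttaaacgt
IFI44L: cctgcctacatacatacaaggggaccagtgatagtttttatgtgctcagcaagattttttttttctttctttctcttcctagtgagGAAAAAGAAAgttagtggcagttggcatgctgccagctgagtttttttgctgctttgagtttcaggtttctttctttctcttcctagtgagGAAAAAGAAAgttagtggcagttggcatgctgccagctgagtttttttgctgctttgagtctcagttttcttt

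In ISG15 the 2 matches overlapped, with first bases 113 and 107 bases before the start. At the second start of IFIT3 the matches began 94 and 51 bases before it, and the nearer one was the form with GT, on the opposite strand. At the other start of IFIT3, not shown, they began 156 and 122 bases before it. IFIT1 had the form with GT, also on the opposite strand, 116 bases before its start, and a second match at 103. IFI44L had matches at 164 and 73 bases, which lay in 2 near-identical copies of one stretch of its sequence. OAS3, also not shown, had matches at 143 and 12 bases. MX1 had 3 promoters: 1 held a match 196 bases before its start, 1 held a match that began at base 12 of the transcript, and 1 held none. The windows of ZC3HAV1 and OAS1 held no spaced GAAA pair, and that of OAS1 held GAAAGTG 48 bases before the start. The OAS1 window and the MX1 promoter without a match do hold copies of GAAA with 1 base between them. Such pairs were not counted.

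The 4 intervals with peaks were ZC3HAV1, ISG15, the IFIT cluster and the OAS cluster, and the 3 without any peak were IFI44L, MX2 and MX1. Of the 10 peaks, 7 had a false discovery rate (FDR) of at most 5%, the authors' limit, where 43.5% of all 9669 peaks did. The FDR is the caller's own estimate from peaks called with ChIP and input swapped. The authors' limits together, such an FDR and at least 50 tags, left 3 of the 10, against 9.17% of all peaks. These 3 lay at ZC3HAV1, with 2, and at ISG15. Tags are the PRDM1 reads counted in a peak once duplicates were removed. The 10 peaks held 722 tags, and 74.2% of these lay at ZC3HAV1.

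**Figure D1:**
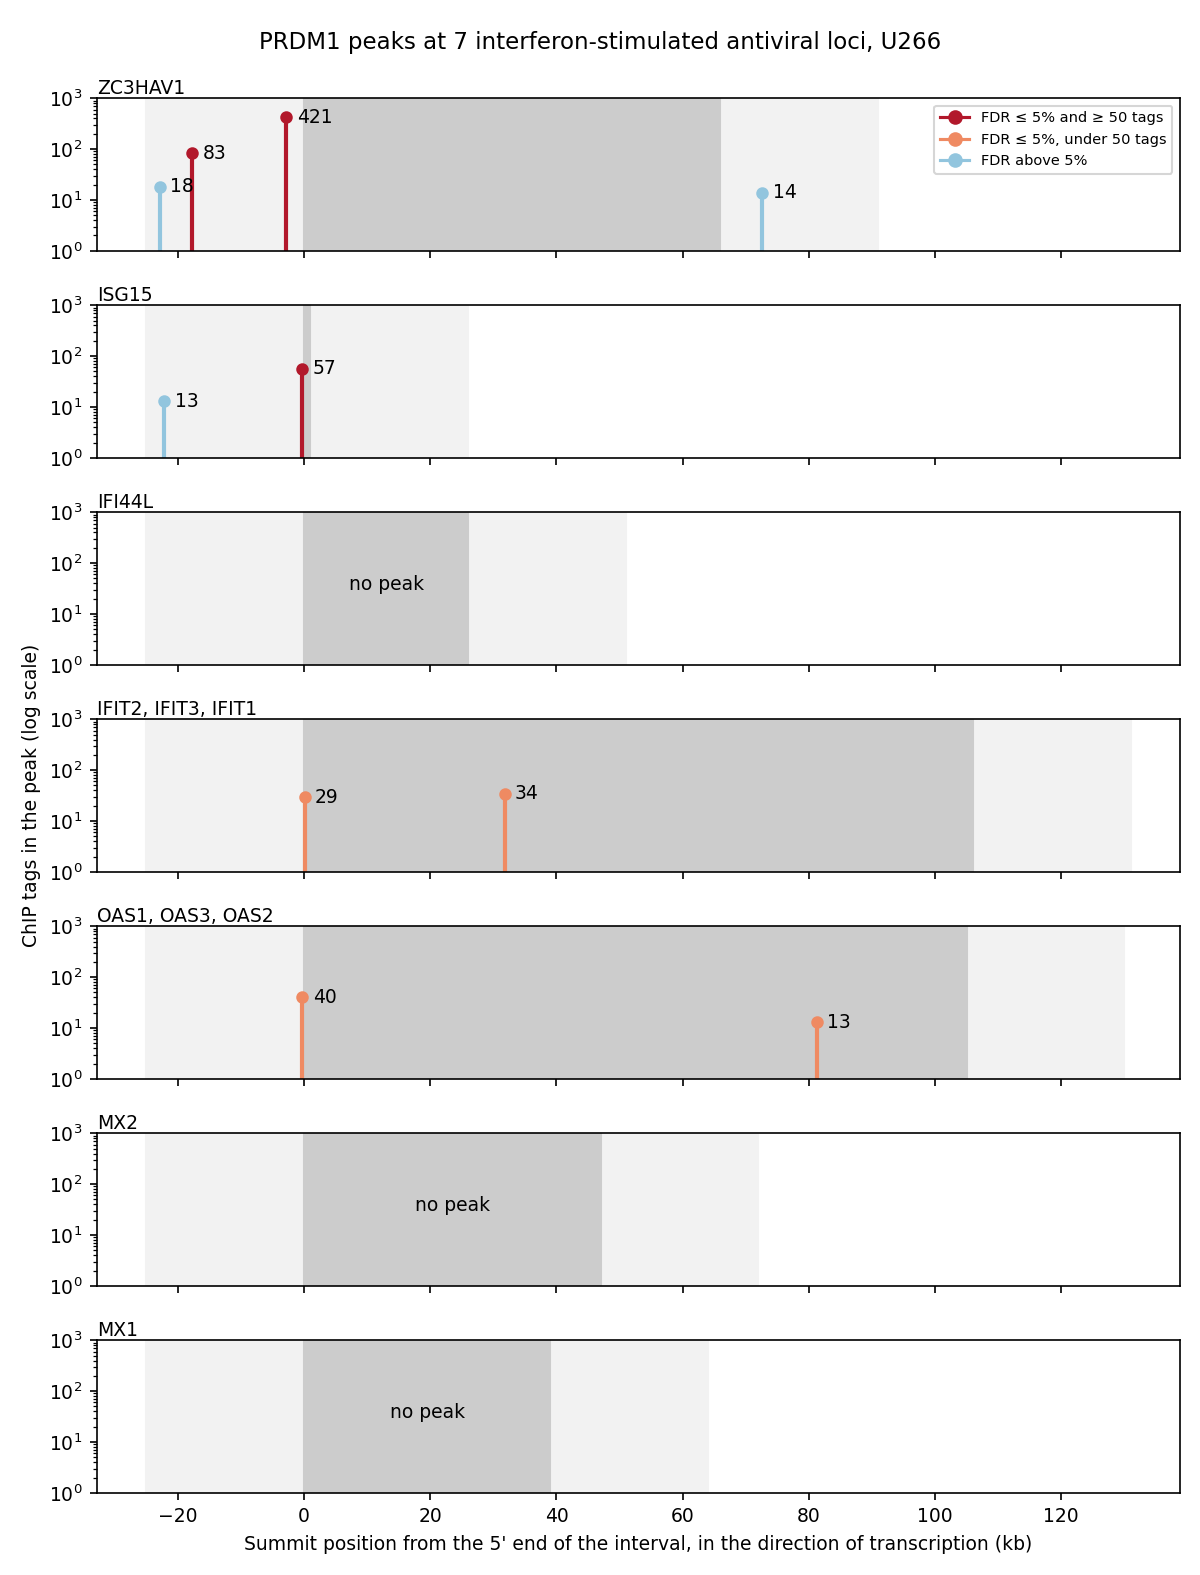
PRDM1 peaks at each of the 7 intervals, with the position of the summit from the 5′ end of the interval in kb on the x axis and tags per peak on a log y axis. Dark grey is the interval of the gene or cluster, light grey the 25 kb on each side, and the peaks of ZC3HAV1 reach 421 tags while IFI44L, MX2 and MX1 have none.

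As a share of intervals, 57.1% (4 of 7) held a peak. Their windows, 25 kb on each side included, averaged 106 kb, and 24.7% of the 29193 windows of that length that tile the genome held a summit. With an FDR of at most 5% the count was again 4 of 7, against 12% of windows. With at least 50 tags as well it was 2 of 7, or 28.6%, against 2.87% of windows. The windows of the genome include gaps and stretches without genes, whereas each interval holds a gene. The genes were also chosen with results of these data known, so the difference is not independent evidence. The windows of MX2 and MX1 overlap each other and are not separate samples of the genome.

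ZC3HAV1 encodes the zinc finger antiviral protein, which binds viral RNA rich in CG dinucleotides and recruits its decay. Its window had the strongest binding of the 7 intervals, with 4 peaks and 536 tags (95% Poisson interval 492 to 583). Of 26672 genome windows of the same length, 116 kb, 2 held as many tags in peaks. The main peak, on chromosome 7 from 138795938 to 138798133 (GRCh37), was 2196 bp wide and held 421 tags (382 to 463). It ranked 3 of 9669 by tags, and its fold at the summit, 94.1 over the local background by the authors' caller, ranked 26. Its summit lay 2.8 kb upstream of the 5′ end of the interval, and ends of intervals are known here to 1 kb.

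The score of this peak was exactly 3100, a fixed value that the caller gave to 2 peaks, so its expected tags could not be recovered. Against the genome mean of the input, its scaled tags were 65.8 times the number for that width. A second ZC3HAV1 peak lay farther upstream, on chromosome 7 from 138810796 to 138812433, 17.7 kb from the interval. It held 83 tags (66.1 to 103), a fold of 46.4, and 15 times the tags expected from the input (12 to 18.7). It ranked 318 by tags and 222 by tags over expected. The gap between both summits was 14.9 kb. Of the 887 peaks within the authors' limits, 61 (6.88%) had another such peak within 25 kb.

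The other 2 peaks of this window were weak. One, from 138816372 to 138817304, had 18 tags, 4.07 times the expected number (2.49 to 6.64), and an FDR of 11.3%. Its summit lay 22.8 kb upstream. The other, from 138720934 to 138721673, lay 6.63 kb past the 3′ end with 14 tags, 4.5 times the expected number (2.5 to 7.68), and an FDR of 18.5%. In the RefSeq gene order (GRCh38.p14) the next protein-coding gene upstream of ZC3HAV1 is IFT56 and the next downstream is ZC3HAV1L, its paralog. The peaks were given to ZC3HAV1 because their summits lay in its window, and the name of the gene on a peak marks that window only. Their distances to those neighbours were not measured, so some can lie nearer to a neighbour than to ZC3HAV1.

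ISG15 encodes a small ubiquitin-like protein that is joined to other proteins after interferon and is also secreted. A peak lay over its 5′ end, on chromosome 1 from 948136 to 949634. It held 57 tags (43.2 to 73.9), with a fold of 43.1 and an FDR of 0. Its summit was 0.28 kb upstream of the interval, which is less than the 1 kb to which the end is known. The tags were 11.5 times the expected number (8.71 to 14.9), close to the median of 10.4 over peaks within the authors' limits. The peak ranked 696 by tags, 273 by fold and 563 by tags over expected. A second peak, from 926640 to 927306, lay 22.2 kb upstream with 13 tags, 5.25 times the expected number (2.83 to 9.08), and an FDR of 12.4%. HES4 is the next protein-coding gene on that side. Both peaks together held 70 tags (54.6 to 88.4), and 1.07% of genome windows of 51 kb held as many.

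The IFIT genes encode tetratricopeptide repeat proteins, of which IFIT1 binds viral RNA lacking the methylated cap of host RNA, and IFIT2 and IFIT3 bind to it or to each other. Their cluster had 2 peaks with an FDR of at most 5% and none with 50 tags. At IFIT2, on chromosome 10 from 91060818 to 91062060, the peak held 29 tags (19.4 to 41.6), a fold of 10.0 and an FDR of 0.33%. Its summit lay 0.09 kb inside the interval and 0.91 kb upstream of the start of IFIT2. At IFIT3, from 91092114 to 91093089, the peak held 34 tags (23.5 to 47.5), a fold of 17.4 and an FDR of 0. Its summit lay 0.78 kb past the second start of IFIT3 and 4.78 kb past the other start. These starts were typed from general knowledge to 1 kb. IFIT1B, which is not among the 11 genes, lies between IFIT3 and IFIT1 in the RefSeq gene order.

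The IFIT3 peak held 12 times the expected tags (8.29 to 16.7) and the IFIT2 peak 4.99 times (3.40 to 7.30), while the intervals of their tags overlapped. The expected tags, 3.09 at IFIT3 and 6.22 at IFIT2, are taken as exact in these intervals, so whether the ratios differ was not tested. The number at IFIT3 is the genome mean of the input for that width and not a local count. That at IFIT2 rests on few input tags. The input background was 1.00 times the genome mean at IFIT3 and 1.58 times at IFIT2, and the IFIT2 region was wider, 1243 bp against 976 bp. The IFIT3 peak ranked 498 of 9667 by tags over expected, above the ISG15 peak, although it was below the authors' minimum of 50 tags. IFIT1 had no peak near its start: the nearest summit was that of IFIT3, 59.2 kb away. The promoter of IFIT1 holds the same form with GT as those of IFIT3. The 2 peaks held 63 tags (48.4 to 80.6), and 4.75% of windows of 156 kb held as many.

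OAS1, OAS2 and OAS3 encode oligoadenylate synthetases, which on sensing double-stranded RNA make the messenger that activates RNase L. A peak lay at the 5′ end of OAS1, on chromosome 12 from 113344246 to 113345371. It held 40 tags (28.6 to 54.5), a fold of 15.7 and an FDR of 0.12%. Its summit lay 0.27 kb upstream of the interval. It held more tags than the IFIT3 peak, but its ratio to the expected number was 5.46 (3.95 to 7.53), with 7.88 tags expected there. The input background there was 2.21 times the genome mean, the highest at the 9 peaks with a recovered background. A weaker peak, at 113425935 to 113426565, was 10.3 kb past the start of OAS2, inside the cluster, with 13 tags, 7 times the expected number (3.77 to 12.1), and an FDR of 3.86%. OAS3 had no summit within 31 kb of its start: the nearest was that of OAS1, 31.3 kb away. The cluster held 53 tags in peaks (39.7 to 69.3), and 5.96% of windows of 155 kb held as many.

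MX1 and MX2 encode dynamin-like GTPases that trap viral nucleocapsids, and IFI44L encodes an interferon-induced protein whose role is less well known. None of the 3 had a peak of the complete list in its window. The summit nearest to the MX2 interval lay 103.7 kb below it, with 10 tags and an FDR of 47.1%. The summit nearest to the MX1 interval lay 108.4 kb above it, with 16 tags and an FDR of 48.0%. The nearest peak within the authors' limits lay 515.8 kb above MX1 and held 56 tags. Around IFI44L the nearest summit lay 392.1 kb above the interval, with 10 tags, and the nearest peak within the limits lay 579.6 kb below it with 60 tags. Windows of the same lengths held a summit in 18.8% of cases for IFI44L, 23.0% for MX2 and 21.5% for MX1, so a window without a peak was the commoner case in the genome.

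An empty window does not show that PRDM1 was absent. At the genome mean of the input, a region of 724 bp, the median peak width, held 2.29 input tags, and 11 PRDM1 tags were needed to pass the caller's p cutoff of 1e-05. For a region of 200 bp, the fragment size, 6 were needed. The smallest peaks of the complete list held 9 tags. Weaker binding at IFI44L, MX1, MX2, IFIT1 and OAS3 was not detectable at this depth.

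**Figure D2:**
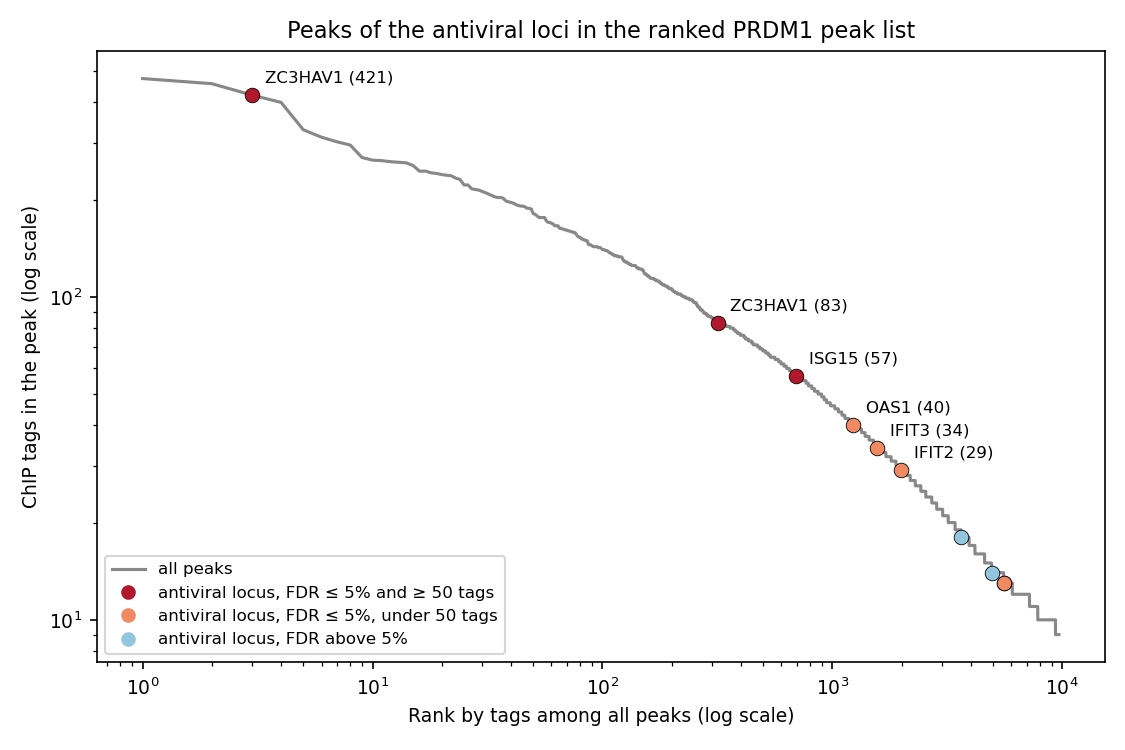
All 9669 peaks ordered by tags, with rank on a log x axis and tags on a log y axis, and the 10 peaks of the antiviral loci as points coloured by the authors' limits. The main ZC3HAV1 peak is at rank 3, ISG15 at 696, and OAS1, IFIT3 and IFIT2 at 1233, 1569 and 1995, while the 2 peaks of 13 tags, at ISG15 and OAS2, share a point.

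The peaks ranged from 13 to 421 tags with a median of 31.5, against 15 over all 9669 peaks. Their median width was 1051 bp, against 724 bp. Their median fold was 15.7, against 11 over all peaks. For tags over expected, the median of the 9 peaks with a recovered background was 5.46, from 4.07 to 15, close to the median of all peaks, 5.54. These 9 leave out the main ZC3HAV1 peak, which held the most tags, so the median does not cover the strongest member. Of the 9 peaks, 3 lay at 11.5 or above, the second ZC3HAV1 peak, the IFIT3 peak and the ISG15 peak at the start, and the other 6 lay at 7 or below.

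**Figure D3:**
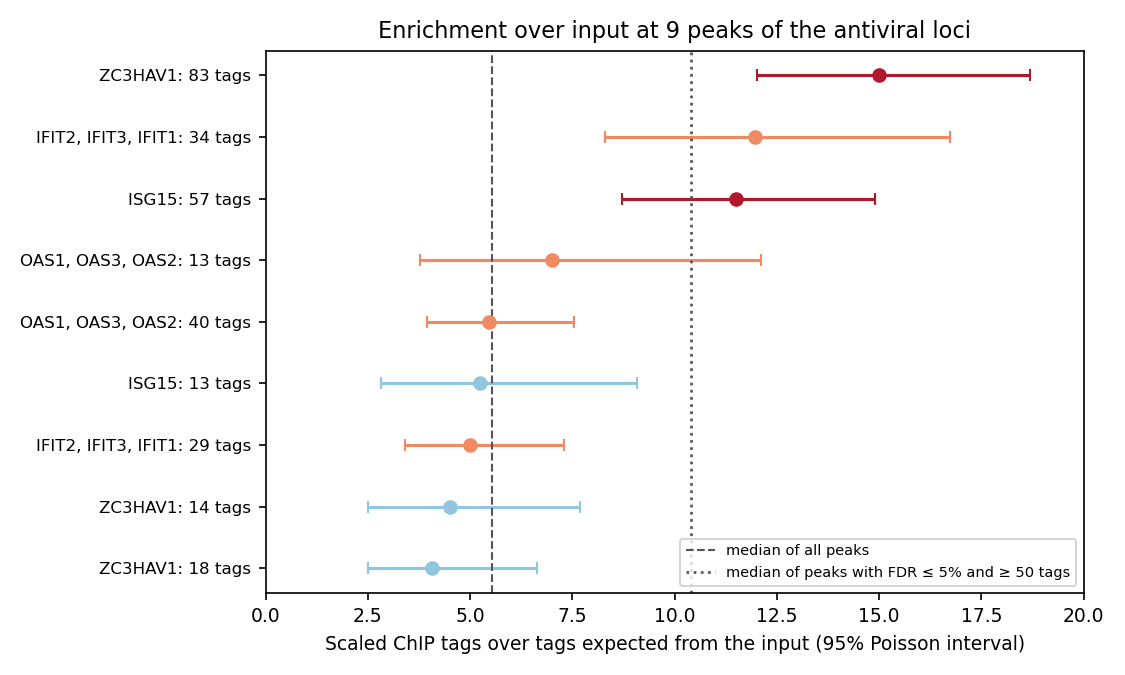
Scaled PRDM1 tags over the tags expected from the input at 9 peaks, with 95% Poisson intervals on the tags and the expected tags taken as exact. Dark red marks an FDR of at most 5% with at least 50 tags, orange an FDR of at most 5% with fewer tags and blue a higher FDR; the second ZC3HAV1 peak, IFIT3 and ISG15 lie at 15, 12 and 11.5, and the others at 7 or below around the median of all peaks, 5.54.

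By position, a summit lay within 1 kb of a listed start for 4 of the 11 genes, ISG15, IFIT2, IFIT3 and OAS1. The starts are known here only to that distance, and the IFIT2 and IFIT3 summits, at 0.91 and 0.78 kb, lay close to it. Over the genome, 0.618% of windows of 2 kb held a summit; the share over start sites of all genes was not measured. The 4 peaks near these starts held 57, 29, 34 and 40 tags, and all had an FDR of at most 5%. The other 6 peaks were those of ZC3HAV1, the distant ISG15 peak and the OAS2 peak, and 3 of these 6 had an FDR above 5%. The summit of 421 tags at ZC3HAV1, 2.8 kb from the start, lay outside the window of the printed promoter.

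Other antiviral interferon-stimulated genes were counted in the same way, as a list of 30 further loci with 32 genes. Of these loci, 10 held a peak (33.3%), 7 held one with an FDR of at most 5% (23.3%) and 1 held one with at least 50 tags as well (3.33%). Windows of 85 kb, their mean length, did so in 20.7%, 9.95% and 2.33% of cases. The 14 peaks there had 19 tags at the median, and a median ratio to the expected tags of 5.41. The only one within both limits lay in ISG20, an RNA exonuclease gene, on chromosome 15 from 89182017 to 89184033. It held 88 tags, which was 7.85 times the expected number (6.35 to 9.76). Of the 7 loci and of these 30, the ISG20 peak and the 2 stronger ZC3HAV1 peaks were the only ones with over 80 tags. The windows of IFI44 and IFIT5, which held no peak, overlap those of IFI44L and the IFIT cluster.

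**Figure D4:**
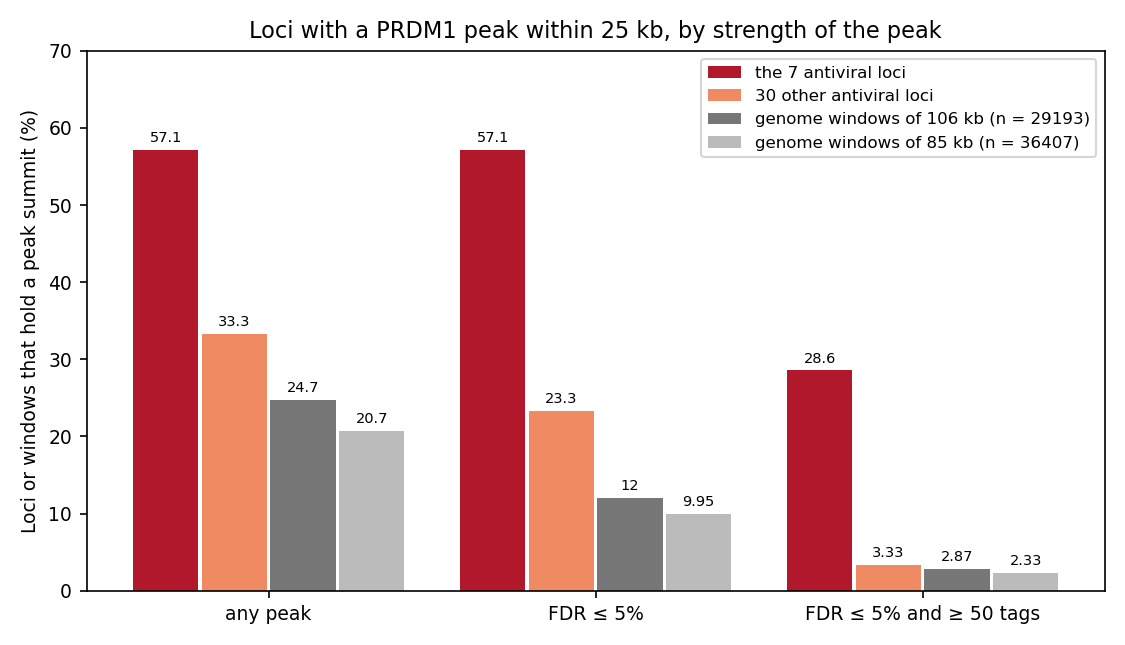
Percentage of loci or genome windows that held a summit on the y axis, for any peak, for peaks with an FDR of at most 5%, and for those with at least 50 tags as well. The 7 antiviral loci stand at 57.1, 57.1 and 28.6%, the 30 other antiviral loci at 33.3, 23.3 and 3.33%, windows of 106 kb at 24.7, 12 and 2.87%, and windows of 85 kb at 20.7, 9.95 and 2.33%.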

How the data were processed

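The submitters' processing notes name CASAVA 1.8.2 and Bowtie 0.12.7 besides MACS 1.4. Peaks were called by MACS 1.4.1 from merged alignment files, per the file headers. A genome build is not given in the sources used here: no peak passed a GRCh37 chromosome end and 53 passed a GRCh38 one, with lengths typed from general knowledge, so coordinates are given as GRCh37. The deposited tables give per peak a count of tags, a score (10 times −log10 p), a fold at the summit (a ratio to the local background) and an FDR in percent, all the authors' own and used to describe and rank peaks. The filtered list of 887 peaks was recovered from the complete list with its limits.

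Members and lists were chosen with earlier results of these data known. Intervals of the 30 other loci and the starts within clusters were typed from general knowledge to 1 kb; the chromosomes of all 43 genes matched RefSeq GRCh38.p14. Every listed gene of the 7 intervals is named, and of the other list every locus with a peak within the authors' limits; IFI44 and IFIT5, which overlap, and USP18, PML and SP100, chosen after their values were seen, are named besides. Expected tags were solved from each score after scaling tags by 1.09, the ratio of input to PRDM1 tags, and rounding down, with the Poisson chance of a higher count. This gave summit heights within 0.06 of a whole number for 98.7% of 9667 peaks. The background of 45 came out below the genome mean by more than a small margin. On simulated data made with the same formula, the solving returned the expected tags within 1% for 451 of 451 peaks, which checks the solving and not the formula. Intervals are exact 95% Poisson intervals on the PRDM1 tags alone. Expected tags were taken as exact although they rest on few input tags, so intervals of ratios are too narrow. Where the background was 1.00 times the genome mean, as at the IFIT3, OAS2 and PML peaks, expected tags were instead the genome mean for that width. Python 3.11.15, pandas 2.3.3, NumPy 2.4.6 and SciPy 1.17.1 were used.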

Additional observations from a re-analysis of the deposited data

How the results depend on the processing

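The 10 peaks at 7 intervals were 3 with no window around the interval, 7 with 10 kb, 11 with 50 kb, 12 with 100 kb, and 10 when any overlap of 1 bp counted. The number of intervals with a peak was 4 at 10, 25, 50 and 100 kb and at an FDR of at most 5%. It was 2 with no window, 2 within both of the authors' limits and 1 at 100 tags or more. With no window, the ISG15 and OAS1 summits fell 0.28 and 0.27 kb outside their intervals, less than the 1 kb to which the ends are known. Of the 30 other loci 10 held a peak, against 5 with no window, 7 with 10 kb, 15 with 50 kb, 19 with 100 kb, 7 at an FDR of at most 5% and 1 within both limits. The share of genome windows that held a summit also rises with length, from 13.7% at 52 kb to 36.3% at 179 kb. That share was not set beside the counts at these other window sizes, so they do not compare loci with the genome. Tags in peaks summed to 722, 677 at an FDR of at most 5% and 561 within both limits, where the IFIT and OAS clusters have none. Tags over expected had a median of 5.46, against 5.33 when rounding to the nearest and 5.9 without scaling. Of the 8 matched genes 6 held the spaced GAAA pair, 2 its form with GT and 3 GAAAGTG. No paired analysis was possible because PRDM1 and input had a single library each. Leaving out a library was not possible either. Distances are limited to 1 kb by the intervals, and exons and introns were not used here. At this depth a site of fewer than 9 tags was never listed.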

Other observations

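Promoter letters and peaks were set side by side for the other antiviral loci, of which 24 had a RefSeq promoter. Of the 17 with a spaced GAAA pair in a promoter, 5 had a peak within 25 kb, and of the 7 without it, 2 had one. Peaks of any FDR were counted here. Genome windows of 85 kb, the mean length of the 30 loci, held a summit in 20.7% of cases. The loci are few, and no difference was tested. None of the 35 promoters of that list held the form with GT. Peaks near USP18, which removes ISG15 from proteins, held 15 tags at 6.79 times the expected number, and near PML, a nuclear body protein, 37 tags at 12.5 times (8.88 to 17.4). The PML summit lay 18.8 kb outside the interval of the gene, and its background was the genome mean of the input. SP100, another nuclear body protein, had 3 peaks of 11, 40 and 30 tags. These loci were named after their values were seen.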
